A study of Rattus norvegicus with 9 samples.

Results

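Fatty acid uptake and oxidation genes were followed at 6, 18 and 30 months of age in a laryngeal muscle of the rat, the posterior cricoarytenoid. This muscle opens the vocal folds, and the series compares its transcripts across age with 6 months as the baseline. There were 3 arrays for each age, 9 in all (Affymetrix Rat Genome U34), and 4 animals contributed RNA to the pool on an array. The labels give age and muscle for each pool but no strain, sex, genotype or treatment, so the ages are the only groups. The replicates of an age are different pools, and the p-values measure the spread between pools rather than between animals. The members were the genes whose single annotated symbol begins with Acad, Acsl, Acot, Cpt1, Cpt2, Hadh, Fabp, Ech, Eci or Acox, together with *Cd36*, *Etfa*, *Acaa2*, *Acat1*, *Decr1*, *Ppara*, *Ppard*, *Ucp2* and *Ucp3*. They came to 42 genes of 4736 with a single symbol on the arrays, and to 69 probe sets. Where a gene had several, the one with the highest signal on average stood for it. The names *Crat*, *Etfb* and *Acaa1a* also belonged to the rule, but these 3 had no probe set with that single symbol.

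Long-chain fatty acids enter a muscle fibre with the help of membrane proteins such as CD36, are carried through the cytosol by fatty acid binding proteins, and are activated to acyl-CoA by acyl-CoA synthetases. The carnitine palmitoyltransferases bring the acyl group into the mitochondrion, where repeated rounds of dehydrogenation, hydration, a further dehydrogenation and thiolysis release acetyl-CoA. Unsaturated chains need auxiliary isomerases and a reductase, peroxisomes shorten chains that mitochondria handle poorly, and the PPAR nuclear receptors act on the transcription of many of these genes. Respiratory muscles that contract throughout life, to which the posterior cricoarytenoid belongs, draw on oxidative metabolism.

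Most members were measured well enough to be tested. A signal filter kept the upper 60% of probe sets by mean log2(signal + 32), a cutoff of 6.60. It left 5244 probe sets for testing, and 34 of the 42 members passed it. Of these 34 genes, 22 lay in the strongest quintile of tested probe sets and 1, *Ppara*, in the weakest. The other 8 members, *Fabp1*, *Fabp2*, *Fabp7*, *Fabp9*, *Fabp12*, *Acot1*, *Acox3* and *Hadh*, were not tested, and their mean signals over 9 arrays were 7.41 to 43.7. Detection calls were not used here, so these are weak signals, which leave the transcript's presence undecided. A signal depends on the probes as well as on the transcript, so levels were compared between ages and not between genes.

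**Figure D1:**
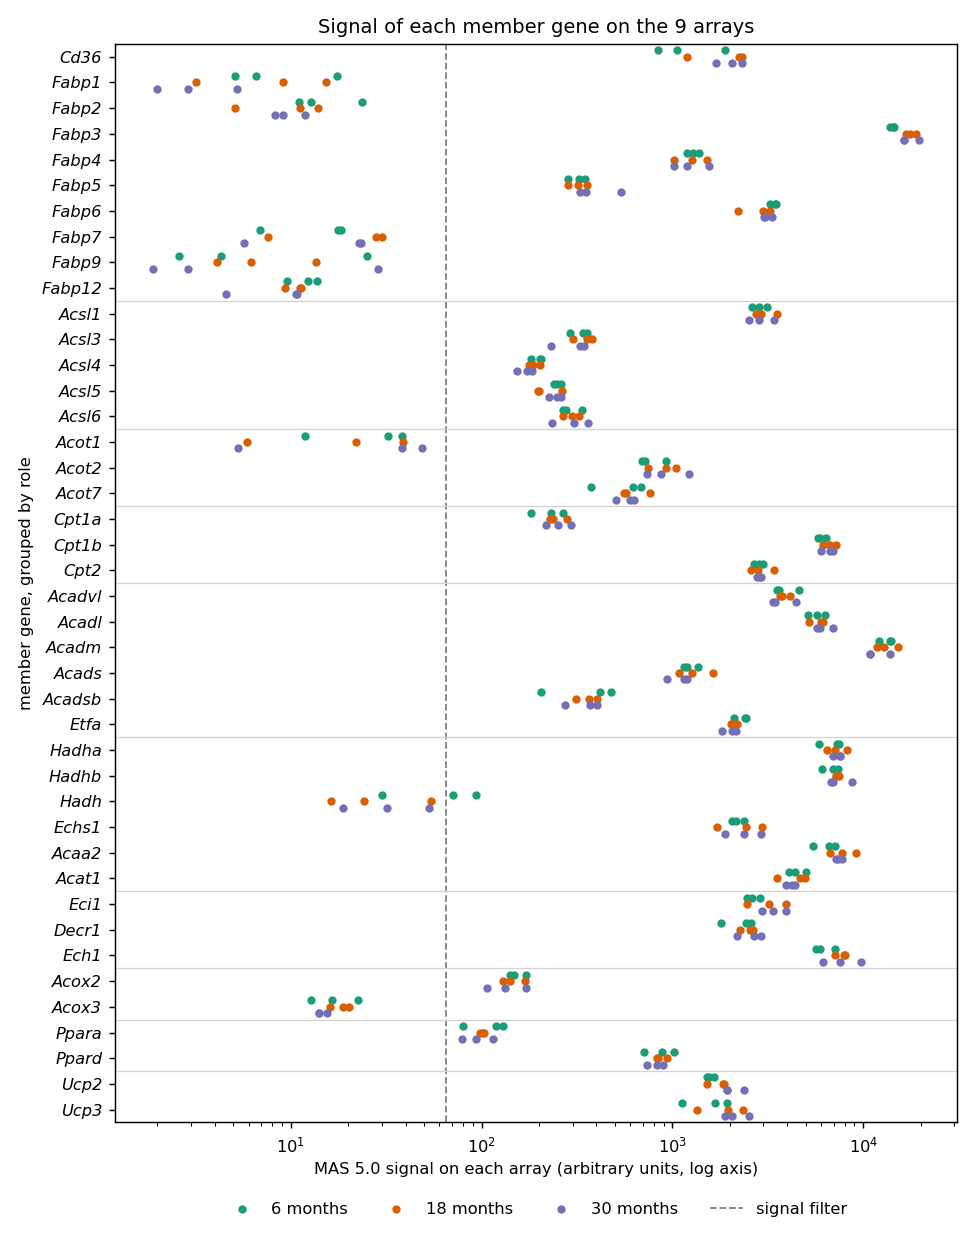
Signal of the representative probe set of each of the 42 members (log axis, arbitrary units) on 3 arrays each at 6, 18 and 30 months, grouped by role; each point is 1 array. The dashed line marks the signal filter, with 34 members to its right and 8 to its left, and within most genes the ages lie on top of each other.

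No member changed with age past the threshold. By limma with Benjamini-Hochberg adjustment over 5244 probe sets, 0 of 34 tested members had an adjusted p under 0.05 at 18 against 6 months, 0 at 30 against 6 months, 0 at 30 against 18 months and 0 in the F-test over all ages. The same rule called 0.0763%, 0.324%, 0.0191% and 0.267% of all tested probe sets, so the count among the members is near the background share and is not a result about them. At an unadjusted p under 0.05 there was 1 member at 18 months (*Fabp3*), 3 at 30 months (*Cd36*, *Fabp3* and *Ucp2*) and 0 between 18 and 30 months, against 8.62%, 12.9% and 3.2% of all probe sets. The F-test gave 2 (*Fabp3* and *Ucp2*) against 8.92%. A rule on signals alone, a ratio of means over 1.7 without overlap, also took 0 members in each comparison, against 1.43%, 2.23% and 0.629% of all tested probe sets. A weaker probe set of *Ppard*, not the one that stands for the gene, passed that ratio at 30 against 6 months (1.90) and at 30 against 18 months (2.37). Changes are differences of means on the log2(signal + 32) scale, which understates the change of weak genes.

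For the probe sets that stand for the genes, at the deposited scaling, the intervals bound how large an age difference these arrays leave room for. The standard error of a tested member's log2 change was 0.11 to 0.32, with a median of 0.15. At 18 against 6 months the 95% interval of 33 of the 34 genes lay within a 2-fold change in either direction, the exception being *Cd36*. At 30 against 6 months this held for 32 genes, all but *Cd36* and *Ucp3*, and for 34 between 18 and 30 months. Within 1.5-fold lay the intervals of 25, 26 and 28 genes. These intervals are for single genes and are not adjusted for their number.

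**Figure D2:**
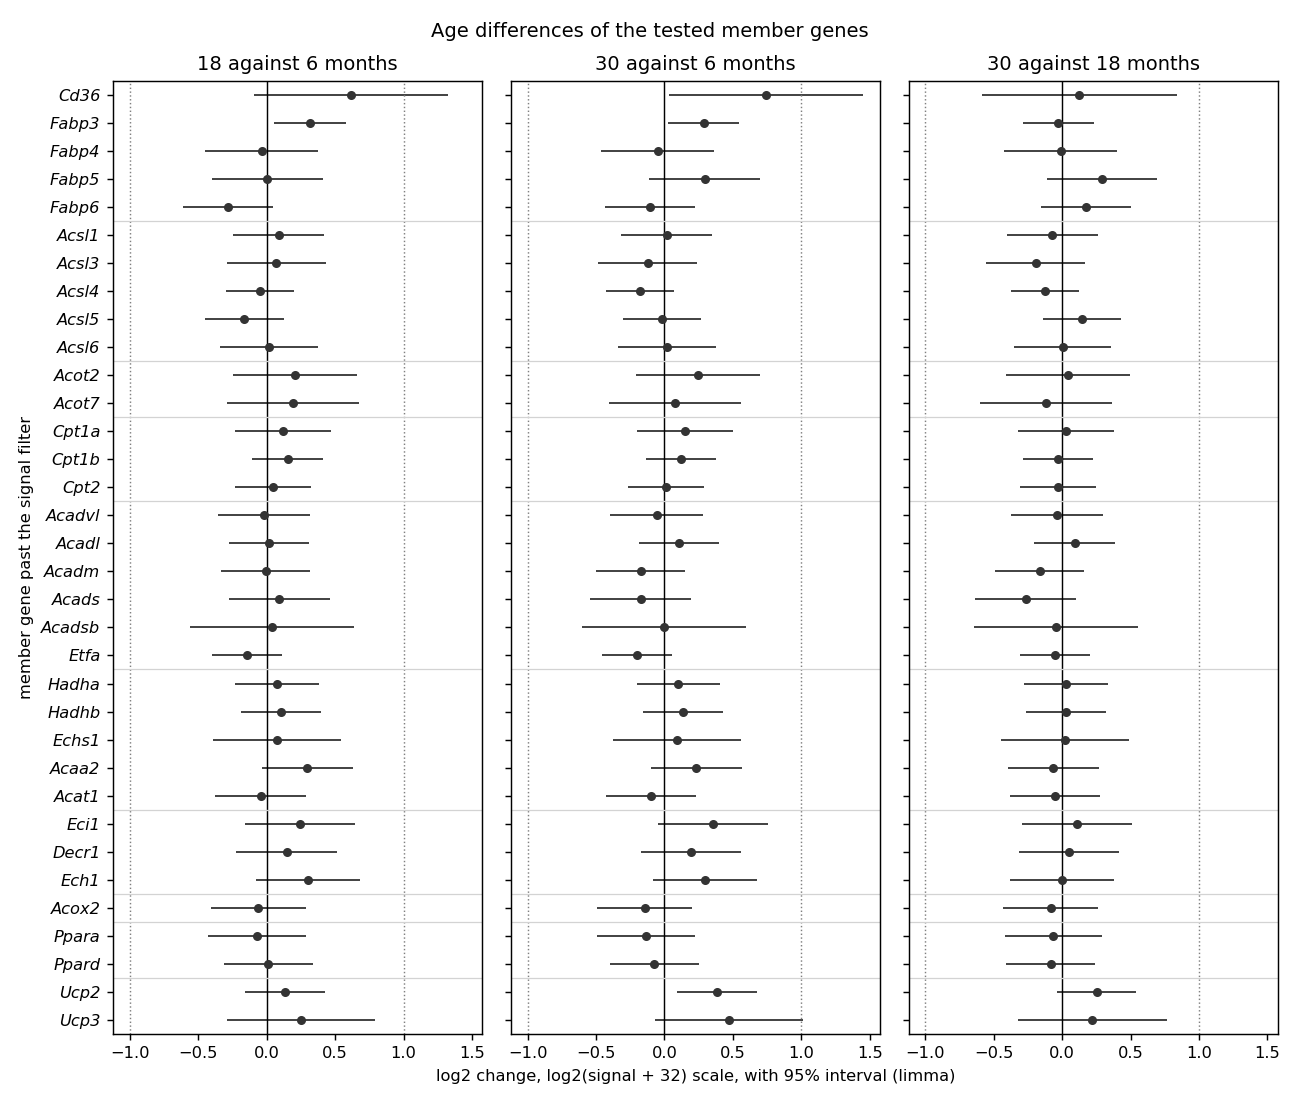
Log2 change (horizontal axis, log2(signal + 32) scale) of the 34 tested members with its 95% interval from limma, for 18 against 6, 30 against 6 and 30 against 18 months, grouped by role; dotted lines mark a 2-fold change. *Cd36*, *Ucp3*, *Ucp2* and *Eci1* lie farthest to the right at 30 months, and 0 of 34 genes passed the adjusted threshold.

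The cytosolic carrier of muscle came nearest to a difference among the uptake genes. *Fabp3* encodes the heart and muscle fatty acid binding protein. Its signals were 14251, 13841 and 14569 on the 6-month arrays, 17529, 16758 and 18899 on the 18-month arrays, and 16272, 16319 and 19647 on the 30-month arrays. All 6 older arrays lay above all 3 arrays of 6 months, and the 2 older ages overlapped. The mean went from 14220 ± 365 at 6 months to 17728 ± 1085 at 18 months and 17412 ± 1935 at 30 months (SD, n = 3 arrays per age), ratios of 1.25 and 1.22. The log2 changes were 0.32 (SE 0.12, limma adjusted p = 0.523) and 0.29 (SE 0.12, limma adjusted p = 0.355). After quantile normalization they were 0.17 and 0.11.

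*Cd36*, which encodes the membrane fatty acid translocase, had the widest spread. Its representative probe set read 840.1, 1881 and 1056 on the 6-month arrays, 1194, 2237 and 2314 on the 18-month arrays, and 1701, 2045 and 2320 on the 30-month arrays. Replicates 1 and 3 of 6 months and replicate 1 of 18 months were low, and each pair of ages overlapped. The mean was 1259 ± 549 at 6 months and 2022 ± 310.4 at 30 months (SD, n = 3), a log2 change of 0.74 with a 95% interval of 0.03 to 1.45 and a limma adjusted p of 0.371. The other tested probe set, made from the same sequence entry, did not show it: it read 854, 1944 and 1911 on the 6-month arrays, 1388, 1390.2 and 1484 on the 18-month arrays, and 1233, 1384 and 1598 on the 30-month arrays. Its log2 changes were -0.05 at 18 and -0.07 at 30 months, so the 2 probe sets disagreed on the sign. Leaving out 1 array at a time moved the change of the first between 0.50 and 1.06, the low end without replicate 1 of 6 months and the high end without replicate 2.

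The other binding proteins were near their 6-month level or differed on single arrays. *Fabp4*, the fatty acid binding protein of adipocytes and capillary endothelium, read 1382, 1284 and 1188 on the 6-month arrays, 1517, 1016 and 1263 on the 18-month arrays, and 1557, 1018 and 1198 on the 30-month arrays. The ages overlapped, with log2 changes of -0.04 and -0.05, and both turned to 0.02 and 0.0043 without replicate 1 of 6 months. *Fabp5*, the epidermal form, read 283, 325 and 349 on the 6-month arrays and 358, 319 and 284 on the 18-month arrays. At 30 months it read 540.4, 351 and 329, so that replicate 1 alone stood above the other ages. Its change at 30 months was 0.29 (SE 0.18, limma adjusted p = 0.501), and 0.09 without that array. *Fabp6* is the bile acid binding protein of the ileum. The probe set that represents it read 3472, 3437 and 3237 on the 6-month arrays, 2209, 3245 and 2983 on the 18-month arrays, and 3332, 3036 and 3039.5 on the 30-month arrays, with replicate 1 of 18 months alone below the rest. Its other probe set read 7.70 to 19.1 and did not pass the filter, so the level of *Fabp6* in this muscle is unsettled. The untested binding proteins, the liver form *Fabp1*, the intestinal form *Fabp2*, the brain form *Fabp7*, the testis form *Fabp9* and *Fabp12*, read at most 29.9 on any array.

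Markers of other cell types showed no call in any comparison. The summed signal of 13 adipocyte markers was 13164 to 16734 on the 6-month arrays, 13256 to 15550 on the 18-month arrays and 13378 to 15299 at 30 months. The list holds *Lpl* and *Slc2a4*, which muscle also expresses, while *Pparg* and the lipid droplet gene *Plin1* did not pass the filter. The 10 endothelial markers summed to 1941 to 2750, 2139 to 2280 and 2021 to 2113, and the 10 macrophage markers to 2263 to 2499, 1784 to 2319 and 2066 to 2905. In these 3 lists unadjusted limma p-values under 0.05 were found only for *Cd14* at 30 against 6 months and for *Lyz2* at 30 against 18 months. The summed signals of the nerve list were 4987 to 6178, 4642 to 5315 and 4632 to 5151, those of the epithelium list 716 to 968, 569 to 679 and 619 to 683, and those of the liver and intestine list 1178 to 1299.9, 804 to 1219 and 785 to 1004. The highest sums of the adipocyte, endothelial and nerve lists over all arrays were those of replicate 1 of 6 months. The adipocyte marker *Scd* read 2347 on that array. The highest macrophage sum, 2905, was that of replicate 1 of 30 months. That array also held the highest signals of *Ucp2* (2362) and *Fabp5* (540.4), and a link between these was not tested. At an unadjusted limma p under 0.05 the nerve list held 3 of 11 tested genes at 18 months and 4 at 30 months, all lower. The epithelium list held 3 of 4 at 18 months, all lower, and 0 at 30 months, and the liver and intestine list 1 of 5 and 0. In the fibre list there were 5 and 8 of 19, all higher. Over all tested probe sets the shares were 8.62% and 12.9%. All 19 skeletal fibre markers were tested and had a positive log2 change at both older ages, with medians of 0.21 and 0.24. After quantile normalization 14 of 19 did so at each age, with medians of 0.08 and 0.06. *Ckm*, muscle creatine kinase, averaged 34163 ± 1407 at 6 months, 44700 ± 3300.4 at 18 months and 45860 ± 2833 at 30 months (SD over 3 arrays), and its log2 change of 0.42 at 30 months had a limma adjusted p of 0.237. The part of this fibre signal in the values of *Fabp3* and of other fibre genes was not tested. In whole muscle, fewer cells of a type and less RNA per cell cannot be told apart.

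Acyl-CoA synthetases, which activate fatty acids, held no call, nor did the carnitine shuttle. In the 5 synthetase genes the log2 changes ran from -0.16 to 0.09 at 18 months and from -0.18 to 0.02 at 30 months. *Acsl1*, the main long-chain form of muscle and fat, averaged 2869 ± 255, 3062 ± 403 and 2916 ± 444 (SD, n = 3), with changes of 0.09 and 0.02, but its 3 other probe sets lay at -0.18, -0.21 and -0.28 at 18 months and at -0.13, -0.08 and -0.39 at 30 months. The last of these read 235, 233 and 279.5 on the 6-month arrays and 144, 178.5 and 232 on the 30-month arrays, all of the latter below the former, by as little as 232 against 233 (limma adjusted p = 0.487). *Acsl4*, a form that prefers arachidonic acid, gave 196 ± 13.4, 188 ± 12.1 and 169.9 ± 15.2. Its representative probe set read 181, 203 and 205 on the 6-month arrays, 202, 178 and 185 on the 18-month arrays, and 173, 154 and 184 on the 30-month arrays, with overlap. Its other tested probe set read 129, 128 and 116 on the 6-month arrays, 98.3, 83.4 and 83.0 on the 18-month arrays and 108, 105 and 117 on the 30-month arrays. The 3 arrays of 18 months lay below both other ages there (log2 change -0.38, SE 0.11, limma adjusted p = 0.431). *Acsl3*, *Acsl5* and *Acsl6* averaged 302 to 346, 220.1 to 248 and 294 to 300.1 over the ages, with changes of 0.07, -0.16 and 0.01 at 18 months and of -0.12, -0.02 and 0.02 at 30 months.

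*Cpt1b*, the muscle form of the outer-membrane transferase that commits acyl groups to the mitochondrion, read 5784, 5920 and 6354 on the 6-month arrays, 7244, 6718 and 6144 on the 18-month arrays, and 6702, 6000 and 6941 on the 30-month arrays. The ages overlapped, and the log2 changes were 0.15 and 0.12 (SE 0.11, limma adjusted p = 0.724 and 0.675). Its other probe set read 2950, 2901 and 3215 on the 6-month arrays against 3330, 3505 and 3384 on the 18-month arrays and 3241, 3227 and 3591 on the 30-month arrays, without overlap between 6 months and either older age, at 0.17 and 0.15 (limma adjusted p = 0.656 and 0.561). *Cpt1a*, the liver form, read 182, 232 and 267 on the 6-month arrays, 279, 237 and 228 on the 18-month arrays, and 294, 250.2 and 218 on the 30-month arrays, with overlap of all ages. The inner-membrane enzyme *Cpt2* averaged 2831 ± 167, 2939.5 ± 416 and 2853 ± 56.6 (SD, n = 3), with changes of 0.05 and 0.01. For *Cpt1a* the small positive change of 0.12 at 18 months was -0.01 without replicate 1 of 6 months. The thioesterases *Acot2* and *Acot7*, which release free fatty acids from acyl-CoA in mitochondria and cytosol, had changes of 0.21 and 0.19 at 18 months and of 0.25 and 0.08 at 30 months, with standard errors of 0.20 and 0.22. *Acot2* averaged 779 ± 131, 904 ± 153 and 942 ± 246 (SD, n = 3), and *Acot7* averaged 559 ± 163, 630.5 ± 114 and 576 ± 63.96.

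The first dehydrogenation of the spiral held no call. The acyl-CoA dehydrogenases handle chains of decreasing length and pass electrons to the flavoprotein whose α subunit is encoded by *Etfa*. At 30 against 6 months 5 of these 6 genes had negative log2 changes, from -0.20 to -0.0023, the last of which (*Acadsb*) turned positive after quantile normalization, and *Acadl*, the long-chain enzyme, had 0.11 on means of 5739.8 ± 603, 5803 ± 502 and 6186 ± 639 (SD, n = 3). *Acadm*, the medium-chain enzyme, averaged 13305 ± 1076, 13273 ± 1772 and 11845 ± 1725 (SD, n = 3). *Acads*, the short-chain enzyme, read 1195, 1149 and 1355 on the 6-month arrays, 1639, 1089 and 1267 on the 18-month arrays, and 1192, 1153 and 934 on the 30-month arrays, and the ages overlapped. *Etfa* read 2436, 2404 and 2111 on the 6-month arrays, 2185, 2026 and 2049 on the 18-month arrays, and 1823, 2058 and 2149 on the 30-month arrays, so that 2 of the 3 arrays of 6 months stood above all others (log2 change -0.20 at 30 months, SE 0.11, limma adjusted p = 0.475). Its other probe set had changes of -0.15 and -0.16. The very-long-chain enzyme *Acadvl* and the branched-chain enzyme *Acadsb* had changes of -0.06 and -0.0023 at 30 months, and *Acadsb* read 204 on replicate 1 of 6 months against 275 to 478 on all other arrays. Their means were 3914 ± 591, 3844 ± 234 and 3762 ± 606 for *Acadvl* and 366 ± 144, 359 ± 45.2 and 349.6 ± 66.6 for *Acadsb* (SD, n = 3).

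The later steps of the spiral lay slightly above 6 months in most genes, without a call. *Hadha* and *Hadhb* encode both subunits of the mitochondrial trifunctional protein. Their means were 6898 ± 882, 7258 ± 892 and 7369 ± 335 for *Hadha*, and 6806 ± 671, 7301 ± 119 and 7493 ± 1052 for *Hadhb* (SD, n = 3). *Hadha* had a change of 0.07 at 18 months, which turned negative after quantile normalization. Without replicate 2 of 6 months its changes at 18 and at 30 months both turned negative. The short-chain hydratase *Echs1* had changes of 0.08 and 0.09, and the mitochondrial thiolase *Acat1* of -0.05 and -0.10. For *Echs1* the change at 18 months turned negative without replicate 1 of 18 months. Its change at 30 months turned negative without replicate 3 of 30 months. *Echs1* averaged 2198 ± 152, 2371 ± 616 and 2381 ± 508 (SD, n = 3), and *Acat1* averaged 4507 ± 461, 4396 ± 741 and 4198 ± 253. *Acaa2*, the thiolase of the spiral, read 5429, 6624 and 7082 on the 6-month arrays, 9203, 7721 and 6660.0 on the 18-month arrays, and 7758, 7192 and 7410.3 on the 30-month arrays. All arrays of 30 months were above those of 6 months, but by as little as 7192 against 7082 (log2 change 0.23, SE 0.15, limma adjusted p = 0.517). Without replicate 1 of 6 months the change was 0.12.

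The 3 genes for unsaturated chains, *Eci1*, *Decr1* and *Ech1*, had positive changes at both older ages in each probe set tested. *Eci1*, an enoyl-CoA isomerase, read 2601, 2469.6 and 2895 on the 6-month arrays, 2464, 3935 and 3215 on the 18-month arrays, and 3369, 2936 and 3941 on the 30-month arrays. The arrays of 30 months did not overlap those of 6 months (ratio of means 1.29, log2 change 0.35, SE 0.18, limma adjusted p = 0.431), and the other 2 tested probe sets had 0.10 and 0.28. *Ech1*, a dienoyl-CoA isomerase, read 5676, 5965 and 7110.1 on the 6-month arrays and 7998, 7943 and 7117 on the 18-month arrays, which do not overlap but nearly touch. At 30 months it read 7529, 6149 and 9681, and the changes were 0.30 at each age (SE 0.17, limma adjusted p = 0.631 and 0.480). Leaving out replicate 3 of 30 months gave 0.13 at that age, and leaving out replicate 2 gave 0.45. *Decr1*, the dienoyl-CoA reductase, averaged 2268 ± 411, 2488 ± 199 and 2588 ± 366 (SD, n = 3), with changes of 0.15 and 0.19. The peroxisomal oxidase *Acox2*, which acts on bile acid precursors, had -0.06 and -0.15 on means of 153 ± 15.2, 146 ± 20.2 and 137 ± 31.7 (SD, n = 3).

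Of the uncoupling proteins, mitochondrial carriers that are commonly induced with fatty acid supply, *Ucp2* had the smallest F-test p of all members. It read 1515, 1655 and 1552 on the 6-month arrays, 1514, 1841 and 1855 on the 18-month arrays, and 2362, 1922 and 1939 on the 30-month arrays. The arrays of 30 months lay above all 6 younger arrays, while 6 and 18 months overlapped. The mean went from 1574 ± 72.8 to 1736 ± 193 and 2074 ± 249 (SD, n = 3), a ratio of 1.32 at 30 months (log2 change 0.39, SE 0.13, 95% interval 0.09 to 0.68, limma adjusted p = 0.314). Its other probe set had 0.11 at 18 and 0.25 at 30 months, with overlap between ages. *Ucp3*, the form most abundant in skeletal muscle, read 1126, 1675 and 1925 on the 6-month arrays, 1349, 2349 and 1953 on the 18-month arrays, and 2063, 1891 and 2534 on the 30-month arrays. Replicate 1 was the lowest array of both 6 and 18 months, and the ages overlapped. The change at 30 months was 0.47 (SE 0.24, limma adjusted p = 0.432), 0.25 without replicate 1 of 6 months and 0.24 in its other probe set.

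**Figure D3:**
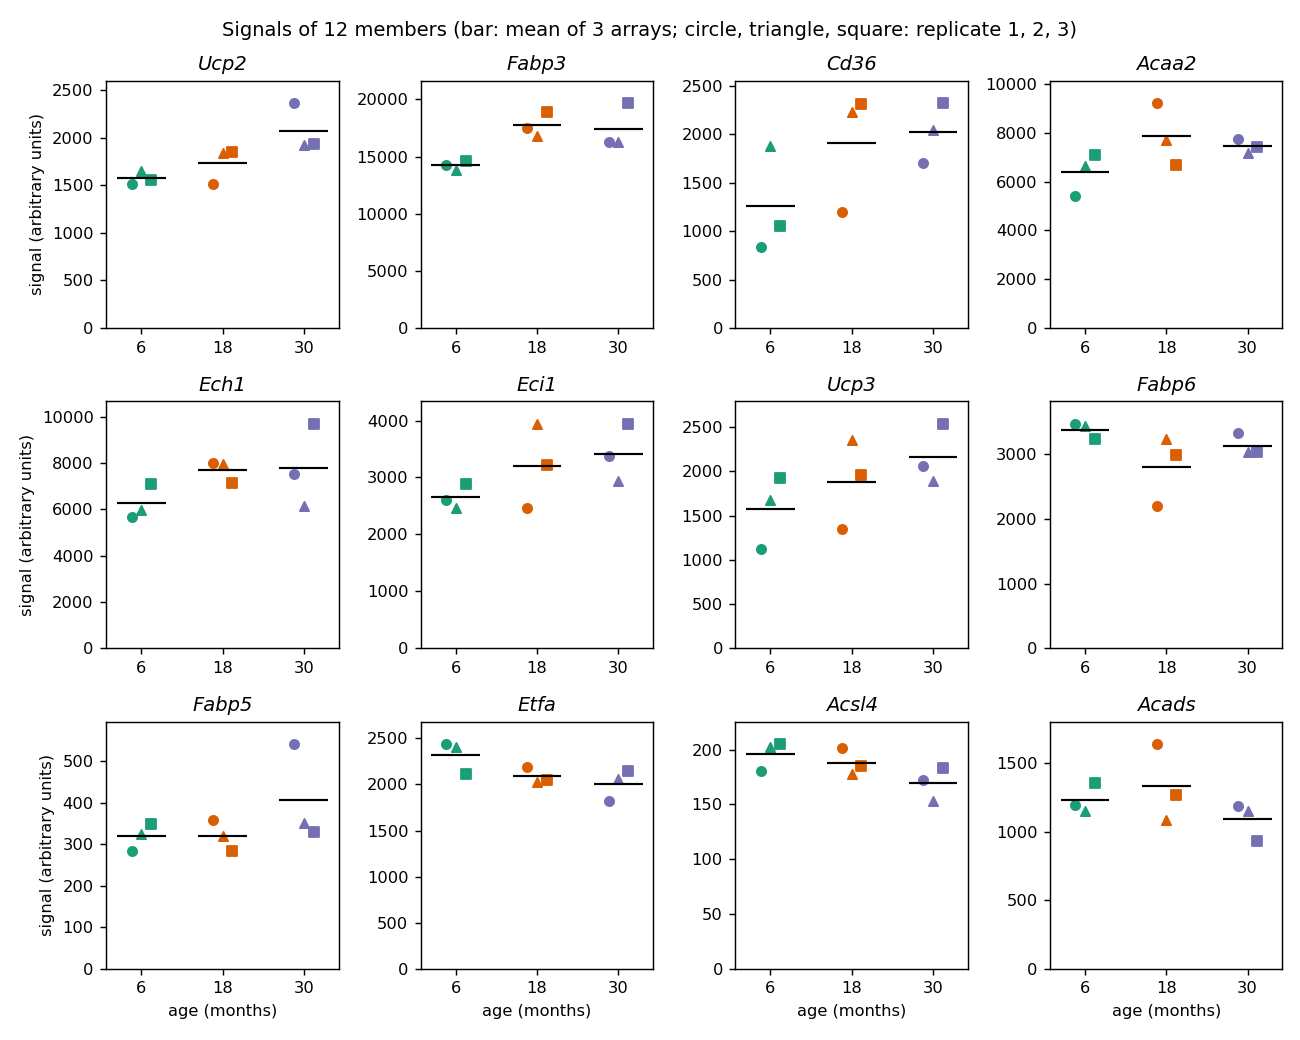
Signals (vertical axis from 0, arbitrary units) of the 12 members with the smallest F-test p at 6, 18 and 30 months; circles, triangles and squares are replicates 1, 2 and 3, and bars are means of 3 arrays. *Fabp3* separates 6 months from both older ages and *Ucp2* separates 30 months from both younger ones, while *Cd36* and *Ucp3* have low replicates within 6 and 18 months.

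The receptors that act on these genes held no call. *Ppara* averaged 109 ± 25.6, 101 ± 2.81 and 95.8 ± 18.1 (SD, n = 3), with changes of -0.07, which turned positive after quantile normalization, and -0.14. *Ppard*, the form most active in muscle, averaged 871 ± 153, 870.0 ± 59.3 and 819.9 ± 77.5, with changes of 0.01 and -0.07. A weak probe set of *Ppard* read 106, 77.5 and 38.9 on the 6-month arrays, 69.6, 36.5 and 71.9 on the 18-month arrays, and 117, 169.7 and 136 on the 30-month arrays. It gave 0.74 at 30 against 6 months and 0.93 at 30 against 18 months (SE 0.25, limma adjusted p = 0.319 and 0.999), whereas the other 2 probe sets gave -0.07 and -0.08 at 30 against 6 months.

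PPARs bind as partners of RXR to paired copies of the half-site AGGTCA, a hexamer that other nuclear receptors bind as well. RefSeq promoter windows of the rat assembly GRCr8, from 250 bases before to 50 after the gene start, matched 32 of the 42 members. Both strands were searched. The exact repeat AGGTCANAGGTCA was in the window of 0 of 32 members and of 0.0538% of all 33469 windows, and the relaxed repeat AGGNCANAGGNCA in 1 member (3.12%), *Fabp1*, against 0.415%. The single half-site was in 7 members (21.9%), *Acadvl*, *Echs1*, *Eci1*, *Fabp1*, *Fabp7*, *Hadhb* and *Ucp3*, against 16.2% of all windows. It is part of the exact repeat, and the relaxed repeat of *Fabp1* also contains it. The half-sites of *Echs1* (from base -93), *Fabp7* (reversed, from base -196) and *Hadhb* (reversed, from base 42) are not printed. Those of *Ucp3*, *Eci1* and *Acadvl* are shown with the *Fabp1* repeat, in capitals, on the gene's strand.
Ucp3, chr1:164227743-164227772, plus strand, half-site from base -155: ttacagagccccAGGTCAcggaagctaaac
Ucp3, chr1:164227848-164227877, plus strand, half-site from base -50: gaattaggtttcAGGTCAgctggtgcataa
Eci1, chr10:13961144-13961173, plus strand, half-site reversed from base -94: actggctgatctTGACCTcctgaagggcgg
Acadvl, chr10:55236857-55236886, minus strand, half-site from base -169: atggatcaccctAGGTCAagtagaatacag
Acadvl, chr10:55236705-55236734, minus strand, half-site from base -17: agacgggagaagAGGTCAgtggtcaaggct
Fabp1, chr4:104749251-104749287, plus strand, repeat reversed from base -77: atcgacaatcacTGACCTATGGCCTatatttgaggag
These matches describe letters in a short window. *Fabp1*, the liver form and the only member with the repeat, read 2.00 to 17.4 over the 9 arrays of this muscle, and *Acadvl*, with 2 half-sites, had changes of -0.02 and -0.06.

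The members' changes were small in both directions. The median log2 change over all 42 members was 0.04 at 18 months and 0.01 at 30 months, against -0.05 and -0.07 over all 8740 probe sets. Among the 34 tested genes 24 had positive changes at 18 months and 20 at 30 months, where 42.3% and 41.2% of all tested probe sets did. These members are strong probe sets, and the median change over all probe sets went up with signal, from -0.12 in the weakest quintile to 0.04 in the strongest at 18 months and from -0.15 to 0.04 at 30 months. In the strongest quintile 61.3% and 59.9% of all probe sets had positive changes, and so did 16 and 15 of the 22 members there. After quantile normalization the shares in that quintile were 51.3% and 48.4%, and 14 and 13 of the 22 members were positive. Both comparisons use the same 6-month arrays, so they are not separate evidence. Between 18 and 30 months 15 of 34 were positive, where 45.9% of all tested probe sets were, with a median of -0.02 over all members.

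The counts of members that separated the ages are given beside the shares over all tested probe sets. They are small and are not read as a result about the members. At 18 against 6 months 2 of 34 members, *Ech1* and *Fabp3*, lay wholly above 6 months and 0 wholly below, against 5.32% and 8.35% of all probe sets. At 30 against 6 months 4 members, *Acaa2*, *Eci1*, *Fabp3* and *Ucp2*, lay above and 0 below, against 7.4% and 14.8%. Between 18 and 30 months *Ucp2* alone lay above and 0 below, against 3.18% and 4.18%.

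Single arrays weighed on these values. On replicate 1 of 6 months 12 of the 34 tested members had their lowest value of all 9 arrays, against 14.8% of all tested probe sets. The median member stood 0.09 below its own mean there, while replicates 2 and 3 of 6 months stood at -0.04 and 0.05. Replicate 3 of 30 months held the highest value of 10 members, against 9.08% of all probe sets, at 0.09 above. Without replicate 1 of 6 months 20 members were positive at 18 months and 19 at 30 months, and 12 of the 34 signs at 18 months turned, among them *Decr1*, *Cpt1a* and *Acot7*.

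**Figure D4:**
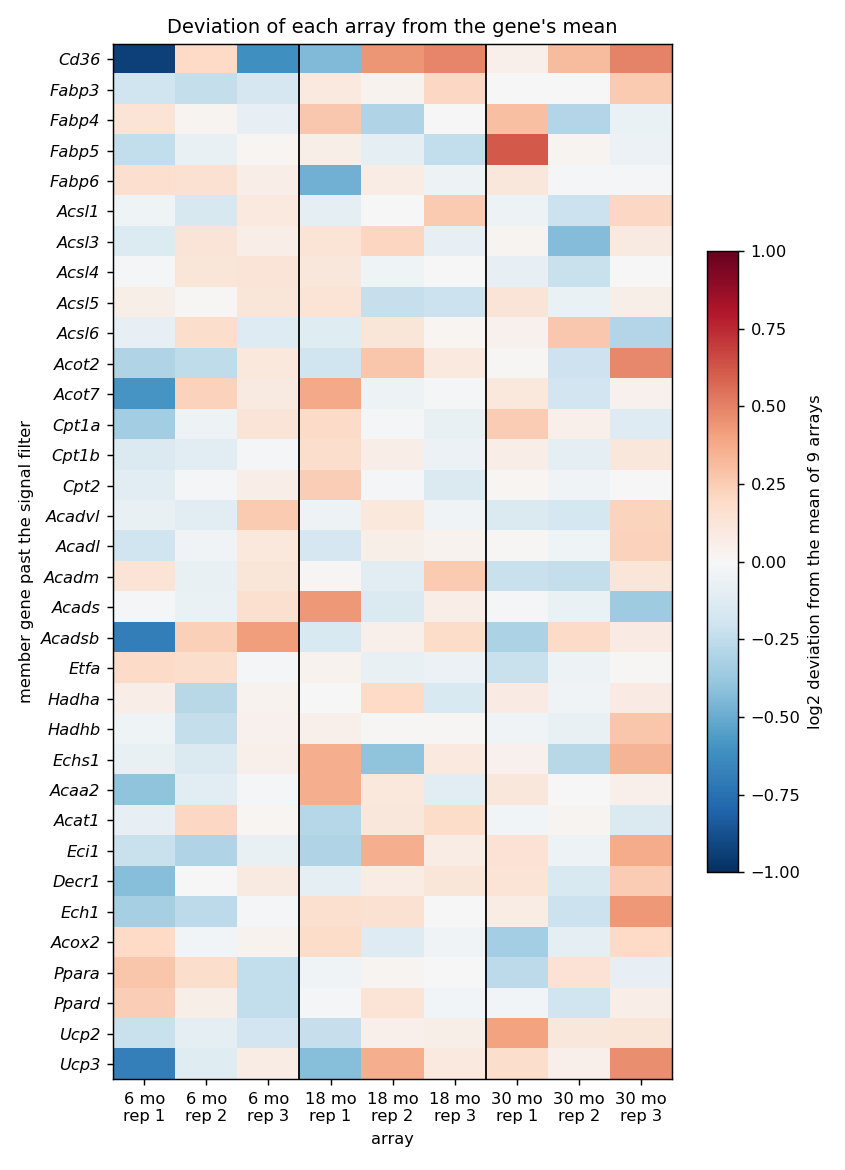
Deviation of each array from the gene's mean over 9 arrays (colour, log2 units from -1 to 1) for the 34 tested members; columns are the arrays and vertical lines divide the ages. Replicate 1 of 6 months holds the lowest value of 12 genes, among them *Cd36*, *Acadsb* and *Ucp3*, and replicate 3 of 30 months the highest value of 10.

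Several probe sets measured some of the genes. Of the 15 members with more than 1 tested probe set, 9 had all changes on the same side of 0 at 18 against 6 months, 11 at 30 against 6 months and 7 at 30 against 18 months. *Acot7*, *Acsl1*, *Cd36* and *Ppard* were split in all 3 comparisons. *Acot2*, *Cpt1b*, *Decr1*, *Eci1*, *Hadha*, *Ucp2* and *Ucp3* were positive in each tested probe set at both older ages, and *Etfa* and *Acsl4* negative, although after quantile normalization the representative probe sets of *Hadha* and *Acsl4* had the opposite sign at 18 months.

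**Figure D5:**
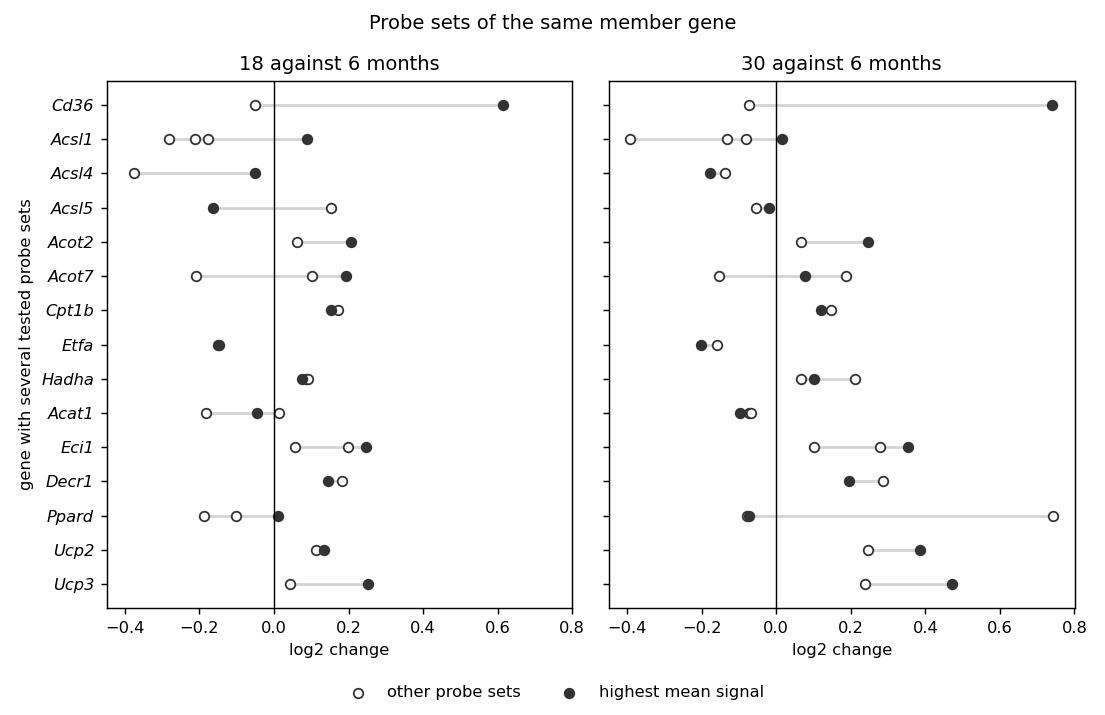
Log2 change (horizontal axis) of every tested probe set of the 15 members with more than 1, at 18 and at 30 against 6 months; filled points are the probe set with the highest mean signal and open points the others. *Cd36* and *Ppard* span the widest range at 30 months, from -0.07 to 0.74 and from -0.08 to 0.74.

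The other genes of the pathway, taken from 7 lists of related functions, held no call either: 0 genes of each list passed in any comparison by limma. At an unadjusted p under 0.05 the 7 lists held 0, 1, 3, 3, 1, 0 and 2 genes at 18 months and 0, 0, 1, 2, 1, 1 and 0 at 30 months, in the order carnitine and acyl transport, receptor partners, PPAR-responsive, malonyl-CoA and AMPK, lipolysis, ketone and branched-chain, and peroxisome. In that order 7, 10, 15, 10, 9, 11 and 11 genes were tested. The shares over all tested probe sets were 8.62% at 18 months and 12.9% at 30 months. Of the 7 tested genes for carnitine and acyl transport 6 had positive changes at 18 months and 3 at 30 months, and *Got2*, which also binds fatty acids at the membrane, averaged 11002 ± 691, 12534 ± 1570 and 10518 ± 1413 (SD, n = 3). Of 10 receptor partners 5 and 4 were positive, and *Rxrg*, the RXR form of muscle, had changes of -0.21 and -0.12. Of 15 further PPAR-responsive genes 4 and 3 were positive, with *Txnip* at -0.07 and -0.02. *Lpl*, the lipase that releases fatty acids from lipoproteins, averaged 4020.0 ± 286, 4395 ± 218 and 4134 ± 389.8, and 3 and 4 of the 9 tested lipolysis genes were positive. In the peroxisome list 4 and 5 of 11 were positive, with *Abcd3*, an acyl-CoA transporter of the peroxisomal membrane, at 0.08 at each age. In the list of ketone and branched-chain enzymes 3 and 1 of 11 were positive, and *Ivd*, isovaleryl-CoA dehydrogenase, had 0.04 and -0.08.

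Among the 7 pathway lists, that of malonyl-CoA and AMPK control had the lowest medians, -0.17 and -0.26 over 10 tested genes, of which 3 and 2 were positive. Malonyl-CoA, the building block of fatty acid synthesis, inhibits CPT1. The list's most strongly measured gene, *Adipor2*, had 0.07 and 0.03. *Acacb*, also named after its values were seen, had the largest positive changes of the list, 0.49 and 0.55. It averaged 281 ± 114, 397 ± 117 and 405 ± 49.4 (SD, n = 3), and its ages overlapped (SE 0.29, limma adjusted p = 0.648 and 0.452). At an unadjusted p under 0.05 were *Fasn*, *Prkaa2* and *Srebf1* at 18 months and *Fasn* and *Srebf1* at 30 months, named after their values were seen. *Fasn*, fatty acid synthase, averaged 490.4 ± 256, 239.9 ± 23.8 and 232 ± 20.3 (SD, n = 3), with 778 on replicate 1 of 6 months, and *Srebf1*, a regulator of lipid synthesis genes, 579.6 ± 6.16, 435 ± 42.9 and 378 ± 111. Their log2 changes at 30 months were -0.88 and -0.61 (limma adjusted p = 0.299 and 0.260). With 1 array left out at a time, added after seeing the data, that of *Fasn* ran from -1.18 to -0.50, the latter without replicate 1 of 6 months, and that of *Srebf1* from -0.82 to -0.49.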

How the data were processed

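Signals came from Affymetrix Microarray Suite 5.0, per the series' design text and the submitters' processing notes (version 5.0). The deposited value table holds probe set intensities (the MAS 5.0 signal) on a linear scale, as deposited, scaled by the authors to a like trimmed mean (500.9 to 501.0 over the 9 arrays); scanner files were not used here, and arrays give no read depth, so their number limits the precision. Of 8799 probe sets, 59 controls were left out. GEO's platform annotation, which can be old, gave 1 symbol for 7006 probe sets, several for 308 and none for 1426.

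Signals were analysed as log2(signal + 32) with limma 3.58.1 in R 4.3.3, with 1 mean per age, 3 arrays each, and Benjamini-Hochberg adjustment over the 5244 probe sets in the upper 60% by mean, at a threshold of 0.05. The fitting code was run on simulated data with independent noise for each probe set and array. Shifts shared by many probe sets of an array were not simulated, so that run does not bear on them. The members and lists were chosen with earlier results of these data known. All 9 signals were given for the 12 members with the smallest F-test p and for the tested Fabp and Cpt1 members, means, ranges or changes for the rest. From each of the 7 pathway lists the gene with the highest mean signal was named, and others after their values were seen. Replicate numbers were not taken to pair the arrays. The alternatives were pseudocounts of 8 and 64, no filter, the upper 40%, quantile normalization, a replicate block, each array left out, the submitters' ratio of 1.7 without overlap, and the mean of a gene's probe sets. For *Fasn* and *Srebf1*, leaving out each array was added after seeing the data.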

Additional observations from a re-analysis of the deposited data

How the results depend on the processing

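In all 67 alternatives that gave a count of members, 0 members passed. The count over all probe sets, 4, 17, 1 and 14 for 18 against 6, 30 against 6, 30 against 18 months and any age, moved more. The ratio rule took 75, 117 and 33. Between 18 and 30 months there were 0 with a pseudocount of 64, 4 without a filter and 0 in the upper 40%. For any age there were 6 with a pseudocount of 8, 6 without a filter and 9 after quantile normalization. With the replicate block there were 11 at 30 against 6 months, 0 at 30 against 18 months and 4 for any age, with 6 at 18 against 6 months and 0 members. Same-numbered arrays had correlations of -0.021 to 0.261 in 9 pairs, 4 of them over 0.1, and 8 of 9 arrays correlated best with their own number, a hint from the data only. Leaving out 1 array gave 0 to 5, 0 to 20, 0 to 1 and 0 to 11 probe sets. The median member change then ran from 0.0234 to 0.0892 at 18 months, -0.0278 to 0.102 at 30 months and -0.0584 to 0.0293 between them. The cause of these shifts was not tested. Of 717 alternatives for single named members 711 stayed within 1 SD, but many of these could not move. A changed filter, the replicate block and an array left out of the age not compared leave a log2 change as it was. The share is therefore not a measure of stability. Signs of uncalled members turned in 7, 7 and 4 of 235 cases without leaving out an array. These cases include the changed filters and the replicate block, which could not turn a sign. Under quantile normalization signs turned for 5 of 34 genes at 18 months (*Hadha*, *Acadl*, *Ppara*, *Acsl4*, *Acox2*) and 4 at 30 months (*Acsl5*, *Acsl1*, *Cpt2*, *Acadsb*).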
